A study of Mus musculus with 6 samples.

Results

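Liver transcript levels of 10 antioxidant genes were compared between laboratory and wild house mice (Mus musculus). The genes were Nqo1, Gclc, Gclm, Txnrd1, Srxn1, Cat, Sod1, Sod2, Gpx1 and Prdx1, picked by name as targets of the transcription factor NRF2 or as core enzymes that remove superoxide and hydrogen peroxide, and they are 10 of the 47256 gene names listed once for every mouse. All 10 passed the filter on low values, which asked for an FPKM of 1 or more in at least 3 of the 6 mice. The 3 laboratory mice were inbred C57BL/6 males of 17 to 18 weeks, and the substrain was not given. The 3 wild mice were outbred adults, trapped alive and then kept under ordinary husbandry until sacrifice, and their exact age was not given. Per the study, wild mice 1 and 2 came from the same trapping site and wild mouse 3 from another site. Wild mouse 1 was male and wild mice 2 and 3 were female. No allele, transgene or treatment was named for either group, and the liver of both groups was flash-frozen and never fixed. Each mouse was measured once by RNA-Seq. The laboratory mice were sacrificed on arrival, and per the study their fixed specimens had been archived for longer than those of the wild mice. Sex differed partly with origin. Genetic background, life history, place of rearing, handling before sacrifice and date of preparation cannot be told apart from origin in these 6 mice.

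NRF2, encoded by Nfe2l2, is held at low levels in unstressed cells because KEAP1 and a CUL3 ubiquitin ligase mark it for degradation. Electrophiles and oxidants modify KEAP1, after which NRF2 accumulates and binds antioxidant response elements together with small MAF proteins. In liver this pathway is known for inducing NAD(P)H quinone reduction, glutathione synthesis and thioredoxin recycling. Superoxide dismutases turn superoxide into hydrogen peroxide, which catalase, glutathione peroxidases and peroxiredoxins then remove.

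The core of the antioxidant response element, TGACNNNGC, was searched on both strands of the RefSeq promoter windows of GRCm38.p6, each 250 bases before to 50 bases after a start site. Windows were given for 9 of the 10 genes, 11 windows in all since Txnrd1 has 3, and none was given for Gclc. The string was present in 5 of the 11 windows, 1 each for Gclm, Txnrd1 (the second of its start sites), Srxn1, Sod1 and Prdx1, and 12.4% of all 32851 windows of this length held it. Windows of the tested genes held it in 14.7% of cases. All 5 matches lay on the strand opposite to the gene. They are shown on the gene strand with 10 bases on each side, so that the levels reported for these genes can be set beside their sequences, and capitals mark the match.
Gclm, chr3:122245413-122245441: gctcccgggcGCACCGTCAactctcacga
Txnrd1, chr10:82859104-82859132: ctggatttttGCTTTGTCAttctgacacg
Srxn1, chr2:152105542-152105570: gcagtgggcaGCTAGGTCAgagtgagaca
Sod1, chr16:90220696-90220724: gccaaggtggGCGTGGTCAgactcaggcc
Prdx1, chr4:116685456-116685484: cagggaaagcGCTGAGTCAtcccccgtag
The Prdx1 match reads TGACTCAGC on its own strand, a string present in 0.454% of all windows, and it overlaps TGACTCA, which the AP-1 factors also bind. Such a share was counted for this exact string only, and not for those matched in the other genes. A second string, TGAGNNNGC, was added after the first search had been read and was present in 17.6% of all windows. It was found in 2 of the genes, Srxn1 and Prdx1. The Srxn1 match nearest to the start site, 45 bases before it on the gene strand, overlaps TGAGTCA.
Srxn1, chr2:152105469-152105497: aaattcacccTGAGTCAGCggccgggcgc

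The 250 bases before the start sites of Nqo1 and Prdx1 are given in full on the gene strand, because these genes had the largest differences of the NRF2 target enzymes and of the peroxide-removing enzymes, and only the window of Prdx1 holds the core string (capitals).
Nqo1, chr8:107403206-107403455, minus strand: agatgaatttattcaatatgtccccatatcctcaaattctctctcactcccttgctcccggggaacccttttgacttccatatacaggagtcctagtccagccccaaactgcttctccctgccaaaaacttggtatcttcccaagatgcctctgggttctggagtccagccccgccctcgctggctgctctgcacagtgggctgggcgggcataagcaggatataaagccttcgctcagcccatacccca
Prdx1, chr4:116685349-116685598, plus strand: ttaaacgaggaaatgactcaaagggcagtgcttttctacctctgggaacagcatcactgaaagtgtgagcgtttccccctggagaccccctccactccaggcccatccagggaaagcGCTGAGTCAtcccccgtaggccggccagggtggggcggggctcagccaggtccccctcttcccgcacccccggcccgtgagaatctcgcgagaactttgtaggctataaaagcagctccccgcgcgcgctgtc
No match in a window says only that these letters are not in it.

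The authors gave each gene as FPKM, fragments mapped to the gene scaled to its length and to the size of the library, and as zFPKM, a score made from log2 FPKM. Depth is unknown because no counts were used here. The centre of the zFPKM score ranged from 0.491 to 2.51 between mice, so that a gene at an FPKM of 100 would score between 1.80 and 1.98 in the laboratory group and between 1.54 and 1.71 in the wild mice. FPKM itself was also higher in the wild mice for most genes, by a median of 0.887 on the log2 scale (1.85-fold) over 10578 tested genes. Differences are therefore given relative to the median gene: log2(FPKM + 0.1), with each mouse shifted to the same median, tested with limma over all tested genes with Benjamini-Hochberg adjustment. On that scale 52.4% of all tested genes passed an adjusted p of 0.05, 26.1% higher and 26.4% lower in the wild mice, and without the shift 58.1% were higher and 8.8% lower. Of the liver markers, Apoa1 lay between 15320 and 19565 FPKM in the laboratory group and between 7721 and 8583 in the wild mice, and all 8 tested hepatocyte markers were detected in every mouse. Laboratory mouse 3 and wild mouse 1 had stood apart in earlier results of these data, and what changed without both is given where a call turned on it. Wherever wild mouse 1 was left out, only wild females were set against laboratory males, so sex and origin cannot be told apart there.

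Of the 10 genes, 5 rose in the wild mice relative to the median gene (Nqo1, Prdx1, Cat, Gpx1 and Txnrd1), 1 fell (Sod1) and 4 did not pass the test (Gclc, Gclm, Srxn1 and Sod2). The 6 calls are 60% of the genes, beside 52.4% of all tested genes. The median difference of the 10 genes was 0.64 on the log2 scale, beside -0.01 over all tested genes. All laboratory mice were male, so a fit with sex as a covariate sets the single wild male against them, with the same differences as in males only and no replicate of the wild group behind them. In that fit 4 of the 10 passed, all higher (Nqo1, Txnrd1, Cat and Prdx1), beside 36.1% of all tested genes, 17.3% higher and 18.8% lower. On zFPKM the same 5 genes rose and the same 1 fell, beside 14.5% of 18639 genes, 7.3% higher and 7.16% lower. After quantile normalization 5 rose and 1 fell, beside 54.7% of all tested genes, 28.7% higher and 26.0% lower. With no shift of the mice 8 of the 10 rose and none fell (9 of 10 had a higher mean), beside 58.1% higher and 8.8% lower over all tested genes (66.9% in all). In bulk liver, fewer cells of a type and less RNA per cell cannot be told apart.

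**Figure D1:**
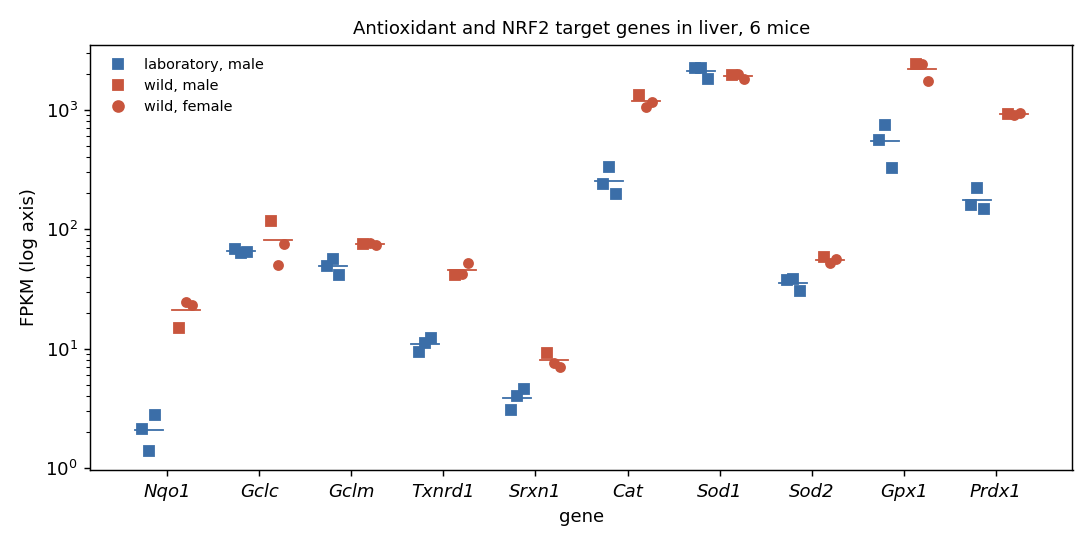
FPKM of the 10 genes (log axis) in each of the 3 laboratory mice (blue) and 3 wild mice (red), squares for males and circles for females, with a bar at the group mean. For 8 of the 10 genes every wild mouse lies above every laboratory mouse, and the groups overlap for Gclc and Sod1, which is to be read beside the 71.0% of all tested genes whose groups did not overlap in FPKM.

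Nqo1, which encodes NAD(P)H quinone dehydrogenase 1, a reductase of quinones and the usual reporter of NRF2 activity, showed the largest difference of the 10. It lies on chromosome 8 from 107388225 to 107403205. Its FPKM was 2.13, 1.40 and 2.77 in the laboratory group and 15.1, 24.8 and 23.1 in wild mice 1 to 3. The groups did not overlap, and the lowest wild value, that of the male, was still above the highest laboratory value. Mean FPKM was 2.10 ± 0.686 (SD, n = 3) in the laboratory group and 21.0 ± 5.19 (SD, n = 3) in the wild mice, a ratio of 9.98. Nqo1 rose by 2.38 ± 0.288 (SE) on the log2 scale relative to the median gene (limma, adjusted p = 0.000615), which is 5.21-fold, and 2.97% of tested genes had a larger value. Within each mouse Nqo1 stood at the 38.1, 21.5 and 36.5 percentile of tested genes in the laboratory group and at the 68.5, 78.6 and 76.7 percentile in the wild mice. It thus changed from the lower part of the expressed genes to the upper part. With sex as a covariate the difference was 1.97, and it passed the test under all 17 alternatives, with adjusted p between 0.000118 and 0.00716 (limma).

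Across the 6 mice, genes with a pattern most like Nqo1 among 3775 tested genes with a mean FPKM of 10 or more included Rhou (Pearson r = 0.993) and Fxr1 (r = 0.988). These values are a description, since the 6 points fall into the 2 groups and share the same libraries. Rhou, for example, did not exceed 10.9 FPKM in any laboratory mouse and was at least 23.8 FPKM in every wild mouse.

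Txnrd1 encodes cytosolic thioredoxin reductase, the selenoprotein that returns thioredoxin to its reduced form. The gene lies on chromosome 10 from 82833951 to 82897724. FPKM of Txnrd1 was 9.47, 11.2 and 12.3 in the laboratory group and 41.7, 42.6 and 52.7 in the wild mice. Every wild mouse, male or female, was thus above every laboratory mouse, and the replicates of each group were close together. The means were 11.0 ± 1.45 and 45.7 ± 6.10 (SD, n = 3 each), a ratio of 4.15. Relative to the median gene the rise was 1.15 ± 0.154 (SE) on the log2 scale (limma, adjusted p = 0.00093), and it passed under all 17 alternatives. Its position moved from between the 74.1 and 75.5 percentile to between the 85.0 and 87.5 percentile of tested genes.

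Srxn1 encodes sulfiredoxin, which repairs over-oxidised peroxiredoxins, and lies on chromosome 2 from 152105524 to 152111376. The laboratory mice had 3.06, 4.03 and 4.59 FPKM and the wild mice 9.27, 7.62 and 7.09 FPKM. The FPKM did not overlap, with means of 3.90 ± 0.775 and 7.99 ± 1.14 (SD, n = 3 each) and a ratio of 2.05, close to the 1.85-fold of the median gene. Relative to the median gene the difference was 0.13 ± 0.185 (SE) (limma, adjusted p = 0.567), and with no shift it was 1.03 and passed (adjusted p = 0.00405).

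Gclc and Gclm encode the catalytic and the modifier subunit of glutamate-cysteine ligase, the first and rate-limiting enzyme of glutathione synthesis. They lie on chromosome 9 from 77754535 to 77794489 and on chromosome 3 from 122245487 to 122267215. Gclc was at 67.9, 63.2 and 65.1 FPKM in the laboratory group and at 117, 49.9 and 74.9 FPKM in the wild mice. Wild mouse 1 was above and wild mouse 2 below all laboratory mice, so the groups overlapped and the spread between the wild mice (SD 34.0) was far wider than between the laboratory mice (SD 2.36). The difference of Gclc relative to the median gene was -0.68 ± 0.318 (SE) (limma, adjusted p = 0.107). Without wild mouse 1, which leaves only wild females, it was -1.01 and passed (adjusted p = 0.0144). With sex as a covariate it was -0.02, and with no shift it changed sign to 0.22 (adjusted p = 0.530).

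Gclm was more even, at 49.4, 56.4 and 41.8 FPKM in the laboratory group and 75.8, 76.7 and 74.4 FPKM in the wild mice. All wild values lay above all laboratory values, with means of 49.2 ± 7.28 and 75.6 ± 1.18 (SD, n = 3 each) and a ratio of 1.54, below the 1.85-fold of the median gene. Relative to the median gene the difference was therefore negative, -0.27 ± 0.218 (SE) (limma, adjusted p = 0.331), whereas with no shift it was 0.63 and passed (adjusted p = 0.00758). Without laboratory mouse 3 it was -0.47 and passed (adjusted p = 0.0311). Gclm overlaps the pseudogene Gm6061 in the annotation, which was listed at 40.2, 52.6 and 35.7 FPKM in the laboratory group and 50.4, 47.0 and 49.4 FPKM in the wild mice. Whether the counting used strand was not given in the sources used here, so the division of reads between Gclm and Gm6061 is uncertain.

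**Figure D2:**
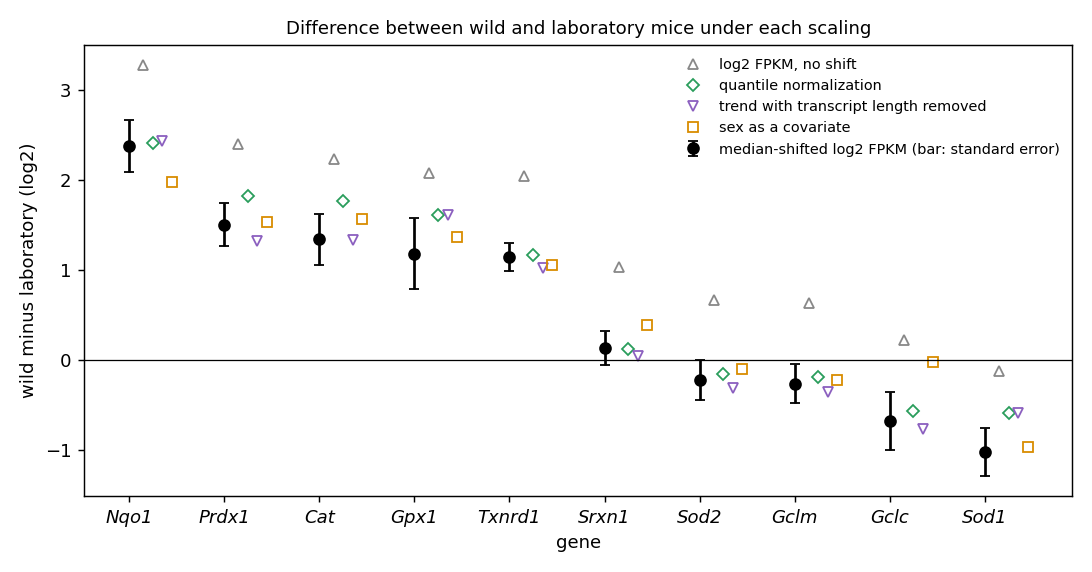
Wild minus laboratory difference (log2) of the 10 genes, ordered by the value relative to the median gene (black circles, bars of 1 SE). Open symbols give the same difference with no shift of the mice, after quantile normalization, with the trend on transcript length removed and with sex as a covariate. Nqo1, Prdx1, Cat, Gpx1 and Txnrd1 stay above 0 under every scaling and Sod1 stays below, while Gclc, Gclm and Sod2 change sign with no shift.

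Prdx1 encodes the abundant cytosolic peroxiredoxin that reduces hydrogen peroxide with electrons from thioredoxin, and lies on chromosome 4 from 116685599 to 116700000. Its FPKM was 161, 223 and 147 in the laboratory group and 913, 903 and 938 in the wild mice. The wild mice differed little among themselves (SD 17.8) and all stood above the highest laboratory mouse. Mean FPKM was 177 ± 40.9 against 918 ± 17.8 (SD, n = 3 each), a ratio of 5.19. Prdx1 rose by 1.50 ± 0.242 (SE) on the log2 scale relative to the median gene (limma, adjusted p = 0.00193), and passed under all 17 alternatives. Its rank among tested genes moved from between 307 and 363 to between 86 and 97. Near-identical copies of Prdx1 (at least 95% identity over at least 100 bases) are Gm21399 and Gm7204. Gm21399 reached 75.4 FPKM in wild mouse 2 and at most 9.65 FPKM in the other mice, while Gm7204 did not exceed 0.0482 FPKM, so reads of Prdx1 may be shared with Gm21399 in part.

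Cat encodes catalase, the peroxisomal enzyme that splits hydrogen peroxide, and lies on chromosome 2 from 103453904 to 103485153. Levels were 238, 331 and 196 FPKM in the laboratory group and 1335, 1051 and 1151 FPKM in the wild mice. The lowest wild mouse was well above the highest laboratory mouse. The means were 255 ± 69.2 and 1179 ± 144 (SD, n = 3 each), a ratio of 4.62. Cat rose by 1.34 ± 0.282 (SE) on the log2 scale relative to the median gene (limma, adjusted p = 0.00607) and passed under all 17 alternatives. It ranked between 212 and 290 among tested genes in the laboratory group and between 66 and 80 in the wild mice.

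Gpx1, on chromosome 9 from 108339080 to 108340342, encodes the main cytosolic glutathione peroxidase, a selenoprotein. It was the most abundant of the 10 transcripts in the wild mice by mean FPKM. FPKM of Gpx1 was 557, 744 and 327 in the laboratory group and 2404, 2416 and 1754 in the wild mice. Both groups were spread, with laboratory mouse 3 and wild mouse 3 the lowest of their groups, and they did not overlap. The means were 543 ± 209 and 2191 ± 378 (SD, n = 3 each), a ratio of 4.04, and the rise relative to the median gene was 1.18 ± 0.391 (SE) (limma, adjusted p = 0.0363). The call of Gpx1 did not hold without some of the mice: leaving out wild mouse 1 gave an adjusted p of 0.0828 and leaving out wild mouse 2 gave 0.104, the difference fell to 0.76 without laboratory mouse 3 (adjusted p = 0.0377), and with laboratory mouse 3 and wild mouse 1 both left out it was 0.67 (adjusted p = 0.0680). With sex as a covariate it was 1.37 and did not pass (adjusted p = 0.104).

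Sod1 encodes the copper-zinc superoxide dismutase of the cytosol and lies on chromosome 16 from 90220762 to 90226333. It was the most abundant of the 10 transcripts in the laboratory mice, at 2226, 2255 and 1801 FPKM, and was at 1938, 1976 and 1814 FPKM in the wild mice. In FPKM the groups overlapped, with means of 2094 ± 254 and 1909 ± 84.9 (SD, n = 3 each). Sod1 nevertheless fell by 1.02 ± 0.266 (SE) on the log2 scale relative to the median gene (limma, adjusted p = 0.0146), and the shifted values did not overlap. With no shift the difference was -0.13 (adjusted p = 0.522), with sex as a covariate it was -0.96 (adjusted p = 0.119), and without wild mouse 3 it was -0.95 (adjusted p = 0.0588), all negative. Sod1 has the shortest transcript of the 10, at 641 bases, and the slope of log2 FPKM on log2 transcript length over tested genes was -0.688, -0.685 and -0.544 in the laboratory group and -0.459, -0.430 and -0.380 in the wild mice. With each mouse's trend on length removed the difference of Sod1 was -0.59 and still passed (adjusted p = 0.0168). Sod1 ranked 29, 35 and 33 among tested genes in the laboratory group and 50, 46 and 47 in the wild mice. It has 1 near-identical copy, Gm8566, which did not exceed 1.53 FPKM.

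Sod2, on chromosome 17 from 13007839 to 13018119, encodes the manganese superoxide dismutase of the mitochondrion. FPKM of Sod2 was 37.4, 38.1 and 30.2 in the laboratory group and 59.1, 52.3 and 56.1 in the wild mice. The groups did not overlap in FPKM, with means of 35.2 ± 4.37 and 55.8 ± 3.41 (SD, n = 3 each) and a ratio of 1.59. Relative to the median gene the difference was -0.23 ± 0.220 (SE) (limma, adjusted p = 0.411), and with no shift it was 0.67 and passed (adjusted p = 0.00541). Without laboratory mouse 3 and wild mouse 1 together it was -0.49 and passed as lower (adjusted p = 0.0433). Transcripts of 12 other genes share a stretch of at most 193 bases with Sod2 at 95% identity or more, and those listed once reached up to 79.5 FPKM, so reads of that stretch may be shared.

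Counted over the 10 genes, the 2 groups did not overlap in FPKM for 8, all higher in the wild mice, beside 61.0% of all tested genes higher and 9.95% lower without overlap. After the shift they did not overlap for 6, 5 higher and 1 lower, beside 62.6% of all tested genes, 31.8% higher and 30.8% lower. A single gene compared between 3 mice and 3 mice by an exact permutation test cannot give a two-sided p under 0.1.

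FPKM is scaled to length, and the 10 genes were ordered within each group by mean FPKM. Over tested genes log2 FPKM still fell with log2 transcript length. The slope was -0.688 to -0.544 in the laboratory mice and -0.459 to -0.380 in the wild mice. Sod1 and Gpx1 have the shortest transcripts of the 10, at 641 and 1072 bases, and the part of length in the order was not tested. In the laboratory mice the order of mean FPKM was Sod1, Gpx1, Cat, Prdx1, Gclc, Gclm, Sod2, Txnrd1, Srxn1 and Nqo1. The ranges of Gpx1 and Cat overlapped there, as did those of Cat and Prdx1, and all other neighbours were separate. In the wild mice it was Gpx1, Sod1, Cat, Prdx1, Gclc, Gclm, Sod2, Txnrd1, Nqo1 and Srxn1, where the neighbours Gpx1 and Sod1, Gclc and Gclm, and Sod2 and Txnrd1 overlapped. The order thus differed at the top, where Sod1 was clear of the other 9 in the laboratory mice only, and at the bottom, where Nqo1 and Srxn1 exchanged places without overlap in either group.

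Ratios of FPKM between 2 genes of the same mouse do not depend on how mice are shifted, though they can still depend on transcript length, and are given as a description with no test, since the pairs were chosen after the values had been seen. The ratio of Cat to Sod1, an enzyme that removes hydrogen peroxide to one that makes it, was 0.121 ± 0.0225 (SD, n = 3) in the laboratory group and 0.618 ± 0.0799 in the wild mice, 5.12 times as high. Gpx1 to Sod1 was 0.254 ± 0.0744 against 1.14 ± 0.153, 4.50 times as high. Neither ratio overlapped between the groups, and both were higher in each of the 3 wild mice. Relative to the median gene the differences were 1.34 for Cat, 1.18 for Gpx1 and -1.02 for Sod1. With the trend on length removed they were 1.34, 1.62 and -0.59, so Cat and Sod1 then lay closer together. Gpx1 to Cat, in contrast, overlapped, at 2.09 ± 0.364 and 1.87 ± 0.393. Sod2 to Sod1 was 0.0168, 0.0169 and 0.0168 in the laboratory group and 0.0305, 0.0265 and 0.0309 in the wild mice, a near-constant value in the first group and a 1.74 times higher mean in the second. These transcripts differ much in length (5861 and 641 bases), and with the trend on length removed their differences lay closer together, at -0.32 for Sod2 and -0.59 for Sod1. The ratio of the subunits Gclc and Gclm overlapped between the groups, at 1.35 ± 0.218 and 1.07 ± 0.451. Srxn1 to Prdx1, the repair enzyme to its substrate, was lower in the wild mice, at 0.0228 ± 0.00738 against 0.00871 ± 0.00132, 2.62 times as high in the laboratory mice. Txnrd1 relative to Txn1, the reductase to the thioredoxin it reduces, was 0.0296 ± 0.00832 in the laboratory group and 0.198 ± 0.0342 in the wild mice, 6.69 times as high.

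**Figure D3:**
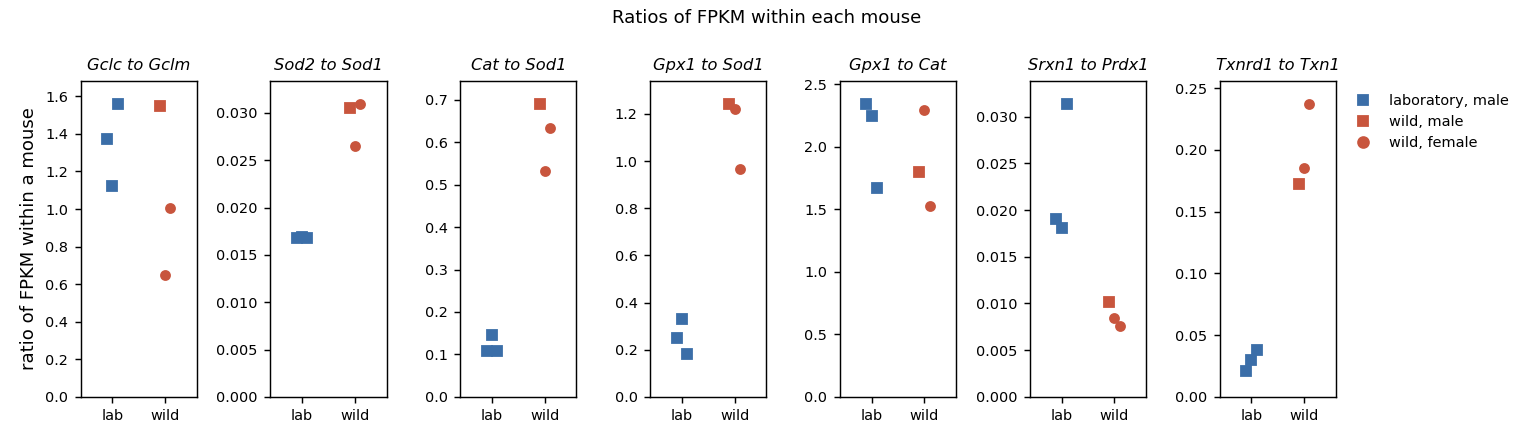
Ratio of FPKM of 2 genes within each mouse, 1 panel for each pair, with laboratory mice in blue and wild mice in red (squares male, circles female). Each axis starts at 0. Cat to Sod1, Gpx1 to Sod1, Sod2 to Sod1 and Txnrd1 to Txn1 are higher in all 3 wild mice, Srxn1 to Prdx1 is lower, and the groups overlap for Gclc to Gclm and Gpx1 to Cat.

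Around these 10 genes, 97 further genes of the pathway were read from 7 lists, of which 84 were tested. Relative to the median gene 26 of the 84 rose (31.0%) and 13 fell (15.5%), with a median of 0.18, beside 26.1% and 26.4% of all tested genes. On zFPKM, where another set of the 97 genes was tested, 24 were called in either direction in place of 39, beside 14.5% of 18639 genes. Of 10 NRF2 regulators, 23 further targets and 15 glutathione genes tested there, 1, 7 and 4 rose and 0, 2 and 0 fell. Of 14 thioredoxin, 12 other dismutase, peroxidase and selenoprotein, 7 NADPH and 9 oxidant-producing genes, 1, 1, 2 and 3 rose and 1, 2, 0 and 0 fell. Relative to the median gene the members of each list moved in both directions, except among the oxidant-producing enzymes. There 3 of 8 rose and none fell, a count to be read beside the 26.4% of all tested genes that fell. With sex as a covariate 4 of these rose and 1 fell.

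**Figure D4:**
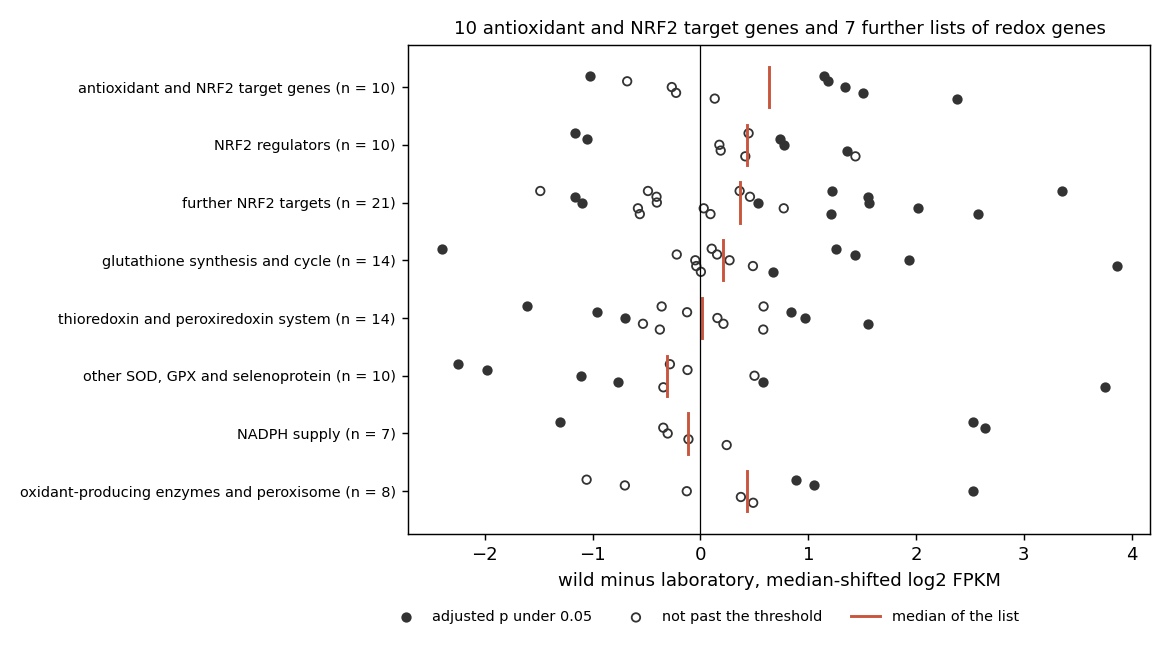
Wild minus laboratory difference relative to the median gene (log2) for each tested gene of the 10 and of the 7 further lists. Filled circles passed an adjusted p of 0.05 and open circles did not, and the red line is the median of the list. Rises reach 3.86 (Gnmt) and falls reach -2.39 (Chac1), and called genes lie on both sides of 0 in every list but the last.

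Of the 10 regulators of NRF2, 3 rose and 2 fell. Nfe2l2 itself was at 8.47, 12.2 and 41.9 FPKM in the laboratory group and 27.9, 32.6 and 44.6 FPKM in the wild mice. Laboratory mouse 3 was as high as the wild mice, and the difference relative to the median gene was 0.18 ± 0.466 (SE) (limma, adjusted p = 0.768). Without laboratory mouse 3 it was 0.76 and passed (adjusted p = 0.0283), as it did without wild mouse 1 in addition (0.89, adjusted p = 0.013), while with sex as a covariate it was -0.09, without laboratory mouse 1 -0.18 and without laboratory mouse 2 -0.05. The complex that marks NRF2 for degradation was divided. Cul3, its scaffold, at 3.71 ± 0.357 against 18.1 ± 1.81 FPKM, rose by 1.36 (adjusted p = 0.000551), and Keap1, the substrate adaptor, at 6.35 ± 1.13 against 20.2 ± 1.21 FPKM, rose by 0.77 (adjusted p = 0.0043). Rbx1, the RING subunit of the same ligase, fell by 1.16 relative to the median gene (adjusted p = 0.00244) with FPKM that overlapped. Mafg, a small MAF partner of NRF2, fell by 1.05 on that scale (adjusted p = 0.0207), again with overlapping FPKM. Sqstm1, the most abundant of the list, which encodes the autophagy receptor p62, had 107 ± 1.93 against 265 ± 12.3 FPKM and a difference of 0.42 that did not pass (adjusted p = 0.109), although it passed with no shift and after quantile normalization.

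Among 21 further NRF2 targets 8 rose and 2 fell. The largest rises were those of Abcc4, an efflux transporter, from at most 0.142 FPKM to between 1.93 and 6.43 FPKM (3.35 ± 0.432 SE, adjusted p = 0.000783, but 1.47 with a pseudocount of 1), and of Gsta1, a glutathione S-transferase, from 4.17 ± 0.270 to 47.2 ± 2.31 FPKM (2.57 ± 0.183 SE, adjusted p = 0.000113). Gsta1 shares much of its sequence with Gsta2, so the split of reads between them is uncertain. Blvrb, a biliverdin reductase abundant in red cells, fell by 1.10 relative to the median gene, and Akr1b8, an aldo-keto reductase, by 1.16, both with FPKM that overlapped. Ftl1, the ferritin light chain and the most abundant of the list, was at 3137 ± 353 and 4176 ± 624 FPKM, a difference of -0.49 that did not pass (adjusted p = 0.140) and that turned positive with no shift (0.41) and after quantile normalization (0.29). Without laboratory mouse 3 and wild mouse 1 together Ftl1 passed as lower (-0.64, adjusted p = 0.0441).

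Glutathione synthesis and recycling counted 5 rises and 1 fall among 14 genes. Gnmt, the glycine N-methyltransferase that consumes S-adenosylmethionine, went from 56.6, 116 and 134 FPKM to 2464, 2864 and 2477 FPKM and rose by 3.86 ± 0.274 (SE, adjusted p = 0.000113). Cth, which makes cysteine from cystathionine, rose by 1.93 ± 0.304 (SE, adjusted p = 0.00178), from 66.9 ± 24.1 to 461 ± 80.9 FPKM. Both supply or draw on the sulphur amino acids upstream of Gclc and Gclm, neither of which passed. Chac1, a glutathione-degrading enzyme near the filter on low values, fell by 2.39 ± 0.708 (SE, adjusted p = 0.0242) with overlapping FPKM.

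The thioredoxin and peroxiredoxin system was divided, with 3 rises and 3 falls among 14 genes. Txn1, the thioredoxin reduced by Txnrd1, was at 445, 379 and 326 FPKM in the laboratory group and 242, 230 and 223 FPKM in the wild mice. It was lower in every wild mouse, and it fell by 1.61 ± 0.253 (SE) relative to the median gene (adjusted p = 0.00178) and by 0.71 with no shift (adjusted p = 0.00523). Prdx6 rose by 0.97 (adjusted p = 0.00842) and Prdx5 fell by 0.96 (adjusted p = 0.0285) relative to the median gene, the latter with overlapping FPKM. Sesn2, a stress-induced sestrin at low level, rose by 1.56 ± 0.443 (SE, adjusted p = 0.0208).

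Among 10 other superoxide dismutase, glutathione peroxidase and selenoprotein genes 2 rose and 4 fell. Selenop, the selenium carrier that liver secretes, was at 113, 190 and 54.9 FPKM in the laboratory group and 2239, 3016 and 2766 FPKM in the wild mice, and rose by 3.75 ± 0.471 (SE, adjusted p = 0.000707). Sephs2, which makes the selenium donor for selenoproteins, rose by 0.58 (adjusted p = 0.0497). Gpx3, the plasma glutathione peroxidase, fell from 10.6 ± 1.37 to 5.07 ± 1.46 FPKM, by 1.98 relative to the median gene (adjusted p = 0.000575), and Gpx8 fell by 2.25 (adjusted p = 0.00864) with overlapping FPKM.

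Of 7 enzymes that supply NADPH, 2 rose and 1 fell. Nnt, the mitochondrial transhydrogenase, was at 3.20, 3.48 and 3.60 FPKM in the laboratory group and 35.7, 43.2 and 43.7 FPKM in the wild mice, and rose by 2.64 ± 0.166 (SE, adjusted p = 7.92e-05). The C57BL/6J substrain is known to carry a deletion in Nnt, and the substrain of these mice was not given. Idh2, the mitochondrial NADP-dependent isocitrate dehydrogenase, rose by 2.53 ± 0.206 (SE, adjusted p = 0.000167), from 10.8 ± 2.91 to 114 ± 7.16 FPKM. The cytosolic Idh1, the most abundant of the list, was at 123 ± 11.5 and 269 ± 7.47 FPKM and did not pass (0.24, adjusted p = 0.248), although with no shift it did (1.14, adjusted p = 0.000296). G6pdx, the entry enzyme of the pentose phosphate pathway, fell by 1.30 relative to the median gene (adjusted p = 0.0165) with overlapping FPKM. Of the oxidant-producing and peroxisomal enzymes, Cyp2e1, a cytochrome P450 known for releasing reactive oxygen, rose by 2.52 ± 0.330 (SE, adjusted p = 0.00084).

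Several of these calls depended on the scale, on the other settings or on single mice. On zFPKM the calls of Keap1, Rbx1, Mafg, Akr1b8, Chac1, Prdx5, Sesn2, Sephs2, Gpx8 and G6pdx were lost, and with no shift those of Rbx1, Mafg, Akr1b8, Blvrb, Chac1, Prdx5, Gpx8 and G6pdx. With sex as a covariate those of Mafg, Prdx5, Sesn2 and Sephs2 were lost, and in males only those of Keap1, Rbx1 and Prdx6 as well. Without laboratory mouse 3 and wild mouse 1 together the calls of Gpx8 (adjusted p = 0.0587), Mafg (0.0725), G6pdx (0.0763) and Akr1b8 (0.153) were lost. Sesn2 lost its call with a pseudocount of 1 (0.70, adjusted p = 0.0664), Akr1b8 with the trend on length removed (adjusted p = 0.0518) and Sephs2 with no filter on low values. Chac1 was -1.39 with a pseudocount of 1, and Blvrb was -0.67 with the trend on length removed, both still called. Leaving out a single mouse ended the call of Mafg (wild mouse 2), of G6pdx (laboratory mouse 1 or 3), of Chac1 (laboratory mouse 1 or 2, or wild mouse 3), of Sesn2 (laboratory mouse 1, or wild mouse 2 or 3), of Akr1b8 (laboratory mouse 1 or 3, or wild mouse 1 or 3), of Prdx5 (any mouse but laboratory mouse 3) and of Sephs2 (any mouse).

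Markers of other cell types moved with origin in part. Of 5 tested erythrocyte markers 4 fell in the wild mice relative to the median gene, and the summed FPKM of all 7 lay between 1339.8 and 5135 in the laboratory group and between 724 and 1581 in the wild mice. Hba-a1, the most abundant, was at 1079, 1854 and 548 FPKM against 315, 608 and 489 FPKM, and its near-identical copy Hba-a2 may share its reads. Red cells carry much Sod1, Cat, Gpx1 and Prdx2 protein, and the part of these cells in the levels of Sod1, Cat and Gpx1 was not tested. Of 11 tested Kupffer cell and macrophage markers 1 rose (Lyz2, adjusted p = 0.0467) and none fell, whereas with sex as a covariate none rose and 6 fell, and their summed FPKM lay between 77.3 and 125 in the laboratory mice but was 49.6, 198 and 433 in wild mice 1, 2 and 3. Of 7 endothelial markers 1 fell, both tested biliary markers fell, and of 7 stellate cell markers 2 rose and 3 fell. On zFPKM none of the 7 stellate cell markers rose and 2 fell, and after quantile normalization 3 rose and 3 fell. With sex as a covariate the differences of the 2 that rose went from 0.74 and 0.81 to 0.40 and 0.33. Summed FPKM was 27.6 to 42.9 against 23.2 to 77.0 for endothelial, 29.7 to 64.6 against 12.2 to 27.6 for biliary, and 35.1 to 54.6 against 74.2 to 136 for stellate cell markers. The most abundant markers of these lists and of the Kupffer cell list were C1qa (31.0 ± 10.8 and 39.1 ± 29.5 FPKM), Clec4g (15.6 ± 4.07 and 21.6 ± 12.0 FPKM), Spp1 (44.0 ± 15.8 and 16.6 ± 6.22 FPKM) and Dcn (26.5 ± 5.42 and 84.0 ± 25.4 FPKM). Of 8 tested hepatocyte markers 3 rose and 3 fell, and their sum was 28600 to 39645 FPKM in the laboratory group and 23914 to 25086 FPKM in the wild mice. The part of the cell types in the levels of the 10 genes was not tested.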

How the data were processed

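Liver RNA was sequenced from 3 C57BL/6 and 3 wild mice, and per the labels each mouse is a separate specimen, so that n = 3 per group. The authors extracted RNA from fresh frozen tissue, made stranded mRNA libraries, aligned reads to masked GRCm38.p6 with kalign and calculated the deposited FPKM with the Tuxedo pipeline. From log2 FPKM the authors derived a score, the deposited zFPKM, by a centre and SD for each mouse. Reads of wild mice were aligned to a genome of laboratory origin, and the effect on single genes was not tested. No counts were used here, so the depth is unknown, the count-based test named in the study's methods was not repeated, and precision rests on 3 mice per group.

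Names listed once for all 6 mice were used, and values with a failed estimate (24 names, none of the 10 genes; failures are not marked for laboratory mouse 1) were treated as missing. Genes with FPKM of 1 or more in at least 3 mice were tested on log2(FPKM + 0.1), each mouse shifted to a common median, with limma 3.58.1 in R 4.3.3 (lmFit, eBayes with trend, Benjamini-Hochberg over 10578 genes, adjusted p under 0.05). Fold changes on this scale understate those of low genes. The fit was tested on simulated data over 10558 genes. Of 100 genes changed by 1 on the log2 scale 40.0% were called, and of 100 changed by 2, 89.0%, with 3.01% of calls false. Only these genes were changed there, whereas 52.4% of tested genes were called in the data. The spreads were also shuffled among genes, so these rates need not hold for the 6 mice. Transcript lengths were those of the longest GENCODE protein-coding transcript, or of any transcript where a gene had none, and 95.9% of tested genes had one. Promoter windows came from RefSeq. Alternatives were zFPKM, no shift, quantile normalization, a pseudocount of 1, filters at FPKM 5 or none, no variance trend, sex as a covariate, length trend removed, each mouse left out, 2 mice left out together and males only.

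The 10 genes and the lists were chosen with earlier results of these data known. Besides the 10 genes, the text names from each list the 2 largest rises and 2 largest falls among called genes and the most abundant gene, with Nfe2l2, Keap1 and Nnt in any case and the genes most like Nqo1, and some genes of this rule are not reported here. Hba-a2, Lyz2, Gsta2, Prdx2 and the near copies were named after their values had been seen. Python 3.11.15 with pandas 2.3.3 was used for the tables.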

Additional observations from a re-analysis of the deposited data

How the results depend on the processing

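Nqo1, Txnrd1, Cat and Prdx1 kept their direction and their call under all 17 alternatives. Gpx1 kept its direction under all 17 and its call under 12, with adjusted p between 3.27e-05 and 0.122 (limma), and lost it with sex as a covariate, in males only, without wild mouse 1, without wild mouse 2, and without laboratory mouse 3 and wild mouse 1 together. Sod1 kept its direction under all 17 and its call under 12, and lost it with no shift, with no filter on low values, with sex as a covariate, in males only and without wild mouse 3. With no shift Gclc (0.22), Gclm (0.63), Sod2 (0.67), C1qa (0.048), Clec4g (0.35) and Ftl1 (0.41) changed sign, and Ftl1 did so after quantile normalization (0.29). Nfe2l2 changed sign with sex as a covariate or in males only (-0.089 each), and lay between -0.18 and 0.76 with 1 mouse left out, negative without laboratory mouse 1 or 2. Without laboratory mouse 3 and wild mouse 1 together Gclc (-1.11), Gclm (-0.49) and Sod2 (-0.49) passed as lower. In that setting 8 of the 10 genes were called, beside 5693 of the 10578 tested genes. Only wild females were then set against laboratory males, so these calls cannot be told apart from sex. With no shift Txnrd1, Cat, Prdx1 and Gpx1 moved by over 1.5 times, to 2.04, 2.24, 2.40 and 2.08, and Gpx1 did so without laboratory mouse 3 (0.76).

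Over all genes 5547 were called, and 2695 on zFPKM, 13710 with no filter on low values (10653 of them lower), 3427 in males only and 4366 to 5328 with 1 mouse left out. With no filter, a value of 0 FPKM held only the pseudocount and the shift of its mouse. That shift was 0.252 to 0.669 in the laboratory mice and -0.525 to -0.405 in the wild mice. Genes at or near 0 FPKM thus stood lower in the wild mice by the shift itself, and their part in the 10653 was not counted. The count of further pathway genes called moved from 39 to 24 on zFPKM, where another set of these genes was tested. In males only, and in the fit with sex as a covariate, whose differences are the same, the lone wild male was assumed to vary like the other mice. Of the 10 genes 5 to 7 were called with 1 mouse left out. No paired analysis was possible because each mouse is a separate specimen and the design holds no pairs. Apart from the shift of values near 0 FPKM with no filter, the causes of these changes were not tested. Depth is unknown, so no detection limit is given for genes at low FPKM.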
